A study of Mus musculus with 3 samples.

Results

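The 10 genes described here encode subunits of the transcription factor AP-1 and other immediate early products: *Fos*, *Fosb*, *Jun*, *Junb*, *Jund*, *Egr1*, *Ier2*, *Atf3*, *Gadd45b* and *Gadd45g*. The members were chosen by name, and all were listed in each of the 3 count tables, which held between 15319 and 16277 genes. Cells were taken from islets of Langerhans of C57/Bl6 mice in 1 library per condition. Each library was made from 300 islets. WT is labelled only as wild type and was 1 mouse, while the mutants pooled 2 mice per library, carried *Ins1*::Cre-ERT2 with *Taf4* lox/lox and are labelled TAF4 KO. In the study's cohort tamoxifen was given on 3 consecutive days at an age of 11 to 13 weeks, to mutants and to *Ins1*::Cre-ERT2 controls with *Taf4*+/+, and mutant islets were taken 1 week or 5 weeks later. The paper calls the single-cell control *Taf4*+/+ in its Results, the name it gives those controls, and WT in its Methods. Whether the WT mouse of this library carried the Cre or received tamoxifen, and at what time it was taken, is not stated outright. The *Ins1* driver acts in beta cells, but cells were classed here by their hormone transcripts, which do not tell which cells carried the deletion.

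AP-1 is a dimer of a Jun protein with a Fos, Jun or ATF protein, and it binds the DNA element TGACTCA and related sites. Immediate early genes are transcribed within minutes of a stimulus such as growth factor, calcium entry or stress, without new protein synthesis, and their short-lived transcripts decay soon after it. In beta cells glucose and calcium are known to induce *Fos*, *Egr1* and *Junb*. *Gadd45b* and *Gadd45g* encode small stress sensors, and *Ier2* a nuclear protein of the same early response.

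Levels are counts of unique molecular identifiers (UMIs) of a gene, summed over the cells of a class, scaled to counts per 1000000 UMIs of that class (CPM). The assay reads 3′ ends and values were not divided by length, so a level can be compared between libraries and classes and not between genes. A beta cell had at least 20% of its UMIs from *Ins2* and under 3% from *Gcg*, an alpha cell at least 15% from *Gcg* and under 10% from *Ins2*, and a delta cell at least 5% from *Sst*. At 1 week these hormone minimums were 5%, 8% and 1.5%, in barcodes of 5000 or more UMIs. Cells that met 2 definitions were left out, which removed 2 cells of WT, 1 of the 1-week and 201 of the 5-week library. The WT library held 8269 beta, 2772 alpha and 619 delta cells among 12000 barcodes, the 1-week library 561, 172 and 37 among 2295, and the 5-week library 5557, 2938 and 1242 among 11229. All listed markers of each class, hormones included (11 for beta, 11 for alpha and 8 for delta cells), were detected in that class in every library. Delta cells also held *Ppy*, the hormone of PP cells, at 18905 CPM in WT, 27142 at 1 week and 23036 at 5 weeks, and its part in the delta values was not tested.

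The libraries differed in more than genotype and time. The median beta cell had 1656 UMIs in WT, against 24764 at 1 week and 3899 at 5 weeks. The animals are described as male, yet the WT library held *Xist* at 891 CPM and no UMI of *Ddx3y*, *Uty*, *Kdm5d* or *Eif2s3y*, which lie on the Y chromosome and were all present in the mutant libraries. The WT library thus goes against its label in this respect, and comparisons of the mutant libraries with each other are given below as values that do not use it. *Taf4* itself was at 4.68, 7.55 and 3.52 CPM in beta cells of WT, 1 week and 5 weeks. Reads from a 3′ end need not cover the deleted exons, so these values do not check the labels. With 1 library per condition no test was possible, and genotype, animal, preparation and library cannot be told apart. The paper describes collagenase digestion, culture of the islets, dissociation with Accutase and sorting before capture. The part of this handling in the member levels was not tested. Between 2 and 33 barcodes were shared by a pair of libraries. Intervals in parentheses are exact 95% intervals and cover counting error only.

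RefSeq promoter sequences were available for 8 of the members, in GRCm38.p6 (mm10), which is the build of the count tables. *Fos*, *Jun* and *Atf3* are shown because they stand for the Fos, Jun and ATF partners of the dimer and had different patterns across the cell classes. Each line holds the 150 bases before the annotated start, read 5′ to 3′ on the strand of the gene. Capitals mark TGACG or CGTCA, which is the core of the cyclic AMP response element on either strand, the TATA box TATAAA, and TGACATCA, the AP-1 site variant known from the *Jun* promoter.
Fos: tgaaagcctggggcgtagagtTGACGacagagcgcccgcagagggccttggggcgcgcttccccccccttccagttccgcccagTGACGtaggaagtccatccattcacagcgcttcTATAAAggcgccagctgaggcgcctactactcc
Jun: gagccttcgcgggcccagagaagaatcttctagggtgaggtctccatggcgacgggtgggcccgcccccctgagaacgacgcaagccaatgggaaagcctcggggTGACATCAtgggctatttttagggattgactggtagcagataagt
Atf3: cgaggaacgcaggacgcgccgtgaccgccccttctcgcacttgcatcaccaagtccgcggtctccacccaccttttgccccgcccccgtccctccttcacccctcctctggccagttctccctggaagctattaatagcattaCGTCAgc
The *Fos* window lies at chr12:85473740-85473889 on the plus strand, the *Jun* window at chr4:95052223-95052372 on the minus strand and the *Atf3* window at chr1:191183334-191183483 on the minus strand. In *Fos* the core TGACG began 129 and 66 bases before the start and TATAAA 33 bases before it. The CGTCA of *Atf3* began 7 bases before the start. The core on either strand was held by 4 of the 8 members (*Fos*, *Fosb*, *Junb* and *Atf3*; 73 of the 150 bases of the *Fosb* window lie inside the gene record) and by 13.3% of 32851 promoter windows of that length. TATAAA or its complement TTTATA was held by *Fos*, *Gadd45b* and *Gadd45g*, and by 7.57% of windows. TGACATCA or TGATGTCA was held by *Jun* alone among the 8 and by 2.32% of windows. The AP-1 consensus TGACTCA or TGAGTCA (2.84% of windows), the full cyclic AMP response element TGACGTCA, which contains the core on both strands (1.36%), and the CArG box bound by serum response factor (0.916%) were in none of the 8. A match of letters is a description of these windows only.

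**Figure D1:**
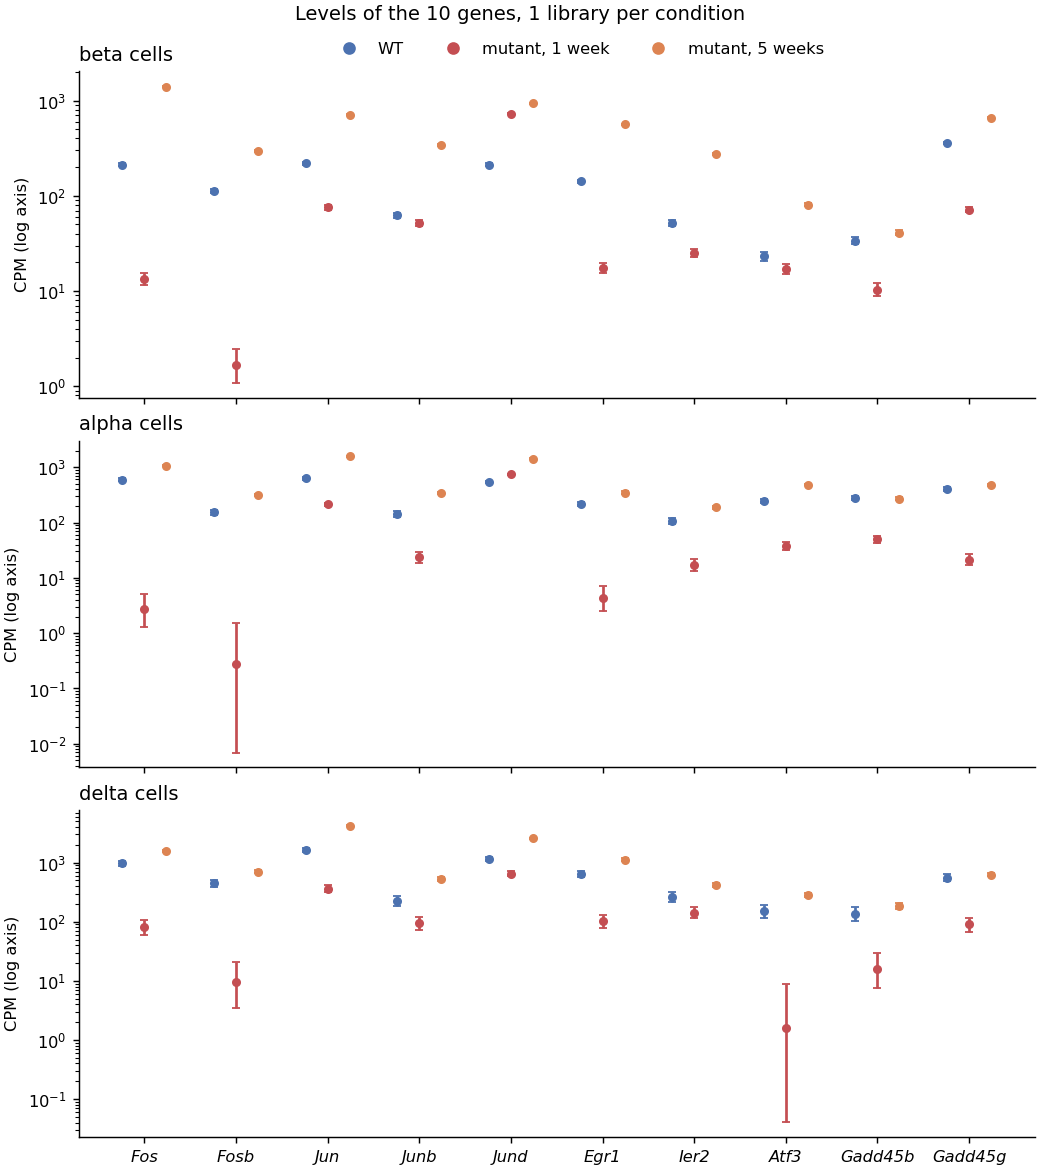
Level of each of the 10 members in beta, alpha and delta cells (CPM, log axis), with 1 point per library and exact Poisson 95% intervals for counting error. The 1-week points lie lowest in each panel except for *Jund*, which at 1 week lies above WT in beta and alpha cells, and the 5-week points lie highest except for *Gadd45b* in alpha cells.

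*Fos* and *Fosb* were lowest at 1 week and highest at 5 weeks. *Fos* (chromosome 12, 85473890 to 85477274), whose protein pairs with Jun proteins, stood in beta cells at 212 CPM (205 to 219) in WT, 13.4 (11.6 to 15.4) at 1 week and, at 5 weeks, 1399 (1385 to 1413). In alpha cells it was at 596 CPM (565 to 628), 2.74 (1.32 to 5.05) and 1069.5 (1043 to 1097) in the same order. In delta cells *Fos* was at 981 CPM (890.2 to 1078), 80.4 (59.7 to 106) and 1571 (1510.2 to 1633). No 2 of the 3 libraries had overlapping intervals in any class. The few *Fos* UMIs at 1 week sat in few cells: 201 UMIs lay in 60 of 561 beta cells, with up to 24 in a single cell, and 10 UMIs in 6 of 172 alpha cells. *Fosb* (chromosome 7, 19302696 to 19310118), a Fos paralogue, was in beta cells at 112 CPM (107 to 117) in WT, 1.67 (1.08 to 2.46) at 1 week and, at 5 weeks, 296 (289 to 302). Alpha cells held it at 154 CPM (138 to 171) in WT and 315 (301 to 330) at 5 weeks, against 1 UMI, or 0.274 CPM (0.00695 to 1.53), at 1 week. In delta cells *Fosb* was at 449 CPM, 9.65 and 699, so that the order of the libraries was that of *Fos* in each class.

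Of the Jun family, *Jund* did not follow this order. *Jun* (chromosome 4, 95049036 to 95052222), the founding partner of the dimer, was in beta cells at 219 CPM (211 to 226) in WT, 75.7 (71.3 to 80.2) at 1 week and, at 5 weeks, 707 (697 to 717). It was at 625, 213 and 1577 CPM in alpha cells. In delta cells, where its level was highest of the classes in each library, *Jun* stood at 1642 CPM (1524 to 1767), 363.5 (318 to 414) and 4197 (4098 to 4298). *Junb* (chromosome 8, 84976909 to 84978748), which dimerises like *Jun* but activates more weakly at many sites, was at 62.5 CPM (58.7 to 66.5), 51.3 (47.7 to 55.05) and 340.0 (333 to 347) in beta cells. Its 1-week level lay further below WT in alpha cells, at 143, 23.3 and 339.6 CPM, than in beta cells, and in delta cells it was at 223.5, 94.9 and 534 CPM. *Jund* (chromosome 8, 70697739 to 70700616), the family member that is transcribed without a stimulus in many tissues, was higher at 1 week than in WT in beta cells: 212 CPM (205 to 219), 727 (713 to 741) and 933 (921 to 944). In alpha cells *Jund* was at 539.5 CPM (510.3 to 570), 737 (709.8 to 766) and 1421 (1390.2 to 1452). In delta cells its 1-week level was below WT, at 1156 CPM (1058 to 1261), 653 (591 to 719.7) and 2574 (2496 to 2653).

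*Egr1* (chromosome 18, 34861207 to 34864956), a zinc finger factor of the same early response, was in beta cells at 141 CPM (136 to 147) in WT, 17.4 (15.4 to 19.7) at 1 week and, at 5 weeks, 564 (555 to 573). It was at 216, 4.39 and 348 CPM in alpha cells and at 643, 103 and 1127 CPM in delta cells. *Ier2* (chromosome 8, 84661331 to 84662852) was in beta cells at 51.9 CPM (48.4 to 55.5), 25.1 (22.6 to 27.8) and 275 (269 to 281), in alpha cells at 108, 17.0 and 187 CPM, and in delta cells at 262, 143 and 414 CPM. Both genes had the order of *Fos* in every class. *Atf3* (chromosome 1, 191170296 to 191183333), a stress-induced ATF protein that can pair with Jun, was higher in alpha than in beta and delta cells of every library. It was at 23.2 CPM (20.9 to 25.7), 17.2 (15.1 to 19.4) and 80.5 (77.2 to 83.9) in beta cells and at 247 CPM (228 to 268), 38.1 (32.1 to 45.02) and 486 (468 to 504.5) in alpha cells. Delta cells held *Atf3* at 150.5 CPM in WT and 283 at 5 weeks, against 1 UMI, or 1.61 CPM (0.0407 to 8.96), at 1 week.

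The 2 Gadd45 genes differed least between WT and 5 weeks. *Gadd45b* (chromosome 10, 80930091 to 80932204) was in beta cells at 33.9 CPM (31.1 to 36.8) in WT, 10.4 (8.79 to 12.1) at 1 week and, at 5 weeks, 41.0 (38.7 to 43.5). In alpha cells it was at 279 CPM (258 to 301), 49.7 (42.7 to 57.4) and 270.5 (257 to 284), and in delta cells at 137 CPM (104 to 176), 16.1 (7.71 to 29.6) and 187 (166 to 209). The intervals of WT and 5 weeks overlapped in alpha and delta cells, and those of 1 week lay below them in each class. *Gadd45g* (chromosome 13, 51846675 to 51848475) was in beta cells at 356 CPM (347 to 366), 71.4 (67.2 to 75.8) and 662 (652 to 671.5). It was at 403, 21.4 and 480 CPM in alpha cells and at 561 (493 to 636), 90.1 (68.0 to 117) and 623 (586 to 663) in delta cells, where WT and 5 weeks again overlapped.

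At 1 week the members other than *Jund* were lower than in WT in each class in which they could be compared. Ratios are read against the median gene, which is the median log2 ratio over all genes with at least 100 UMIs in the 2 libraries together, and a member was counted where it lay at least 2-fold (1 on the log2 scale) from it. In beta cells 9 of 10 members were lower (all but *Jund*) and 0 higher, against 11.6% of 9220 genes lower and 8.08% higher. In alpha cells the counts were again 9 of 10 lower and 0 higher, against 13.6% and 12.0% of 5222 genes. In delta cells 8 members passed the floor on UMIs and 8 were lower, against 8.58% of 1328 genes lower and 10.0% higher, while *Atf3* and *Gadd45b* were under the floor. Without centring on the median gene 7 members were lower and 1 (*Jund*) higher in beta cells. On that scale the median gene itself was more than 2-fold higher, at 1.15, so most genes compared were at least 2-fold higher too. The share of all genes lower on that scale was not computed. In cells thinned to 500 UMIs and without a UMI of the heat shock genes *Hspa1a*, *Hspa1b* or *Dnajb1*, 6 of 8 members were lower and 1 higher in beta cells, where *Junb* turned from -1.44 to 0.13, and 4 of 6 were lower in alpha cells. The shares of all genes in such cells were not computed. That *Junb* value rests on few 1-week UMIs. Only 17 of 561 thinned 1-week beta cells held a *Junb* UMI before those with a heat shock UMI were left out. The median gene itself was at a log2 ratio of 1.15 in beta, 0.63 in alpha and 0.33 in delta cells, so the distances from it are larger than the plain ratios. Relative to it *Fos* stood at -5.13 in beta, -8.39 in alpha and -3.94 in delta cells, and *Fosb* at -7.22, -9.76 and -5.88. The plain log2 ratio of *Fosb* in alpha cells, from 1 UMI against 363, was -9.13 (-14.44 to -6.64). *Jun* was at -2.68, -2.18 and -2.51 relative to the median gene, and so varied little between the classes. *Junb* (-0.28 in beta cells) and *Atf3* (-0.43) differed by less than 2-fold as plain ratios, and they were counted because most genes were higher. In delta cells the same held for *Jund* (-0.82) and *Ier2* (-0.87), and 6 of 8 members were at least 2-fold lower there without centring. *Jund* was above the median gene in beta cells (0.63) and below it in alpha (-0.18) and delta cells (-1.16). Its plain log2 ratio in alpha cells was 0.45 (0.35 to 0.55), so there its direction depends on the scale.

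In UMIs per cell, which 1-week cells held in far larger number, some of these members were still lower at 1 week and others were not. An alpha cell had 0.507 *Fos* UMIs on average in WT and 0.0581 at 1 week, and a beta cell 0.411 and 0.358. *Fosb* was at 0.217 UMIs per beta cell in WT and 0.0446 at 1 week. *Jun* was higher at 1 week by this measure, at 2.02 against 0.424 UMIs per beta cell, as was *Jund*, at 19.4 against 0.410. *Jund* made up 71.9% of the UMIs of the 10 members in beta cells at 1 week and 66.6% in alpha cells, against 14.9% and 16.3% in WT.

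**Figure D2:**
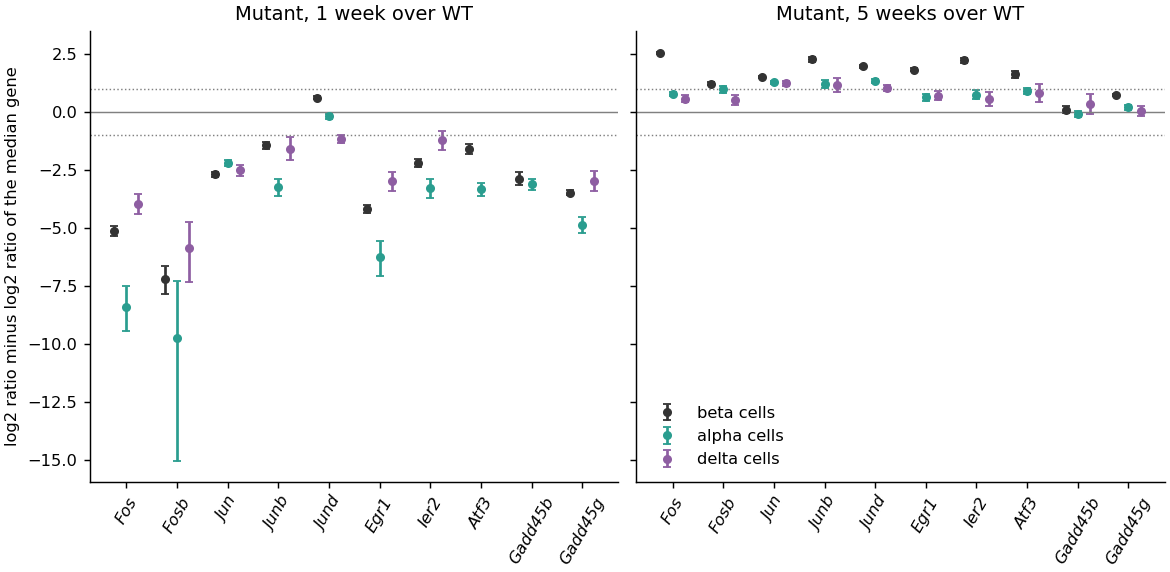
Log2 ratio of each mutant library over WT minus that of the median gene for the 10 members, by cell class, with exact 95% intervals for counting error and dotted lines at 1 and -1. At 1 week *Jund* in beta cells lies above 0 at 0.63 and *Fos* and *Fosb* lie lowest (*Atf3* and *Gadd45b* in delta cells, under the floor, are not drawn), while at 5 weeks the beta points of *Fos*, *Junb* and *Ier2* lie highest.

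At 5 weeks most members were higher than in WT, and the ratio relative to the median gene was highest in beta cells for 9 of 10, all but *Gadd45b*. In beta cells 8 of 10 were counted as higher (all but *Gadd45b* and *Gadd45g*) and 0 as lower, against 3.73% of 9144 genes higher and 5.96% lower. In alpha cells 3 of 10 were higher and 0 lower, against 2.37% and 1.61% of 5356 genes. That count was 5 after thinning to 500 UMIs, 5 under stricter hormone limits, and 1 of 9 in thinned cells without a heat shock UMI. Shares of all genes were not computed for these alternatives. In delta cells 3 of 10 were higher and 0 lower, against 3.09% and 2.12% of 2360 genes. The delta count was 2 after thinning to 500 UMIs, under stricter hormone limits, with a floor of 20 UMIs and with the mean CPM of each cell. It was 2 of 3 in thinned cells without a heat shock UMI. Shares of all genes were not computed there either. In alpha and in delta cells the members counted were *Jun*, *Junb* and *Jund*. The median gene was close to WT here, at 0.16, 0.05 and 0.10 in beta, alpha and delta cells. Relative to it *Fos* was at 2.56 in beta cells, 0.80 in alpha and 0.58 in delta cells, and *Ier2* at 2.24, 0.75 and 0.56. *Jun* differed less between the classes, at 1.53, 1.29 and 1.25, as did *Jund*, at 1.98, 1.35 and 1.05. *Fosb* (0.99) and *Atf3* (0.93) in alpha cells lay just inside the limit. *Gadd45b* was at 0.11, -0.09 and 0.35 and *Gadd45g* at 0.73, 0.21 and 0.05. The median over the 10 members was 1.73 in beta, 0.86 in alpha and 0.64 in delta cells.

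Both comparisons share the WT library. Set against each other without it, the mutant libraries differed further: relative to the median gene, 5 weeks over 1 week ranged over the 10 members from 1.35 (*Jund*) to 8.46 (*Fosb*) in beta cells, from 1.49 (*Jund*) to 10.71 (*Fosb*) in alpha cells and from 1.83 (*Ier2*) to 7.76 (*Atf3*) in delta cells. The *Fosb* value in alpha cells and the *Atf3* value in delta cells each rest on 1 UMI at 1 week.

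Within each library the summed level of the 10 members was lowest in beta and highest in delta cells. The sum was 1423 CPM (1405 to 1442) in beta, 3311 (3238 to 3385) in alpha and 6206 (5975 to 6444) in delta cells of WT. At 1 week it was 1010.5 CPM (994.5 to 1027), 1107.5 (1074 to 1142) and 1555 (1459 to 1656), and at 5 weeks 5296 CPM (5269 to 5323), 6494 (6429 to 6560.4) and 12209 (12039 to 12381). In cells thinned to 500 UMIs the order held in WT, with means of 0.757, 1.77 and 3.05 member UMIs in beta, alpha and delta cells. It also held at 5 weeks, at 3.06, 3.42 and 5.945, while at 1 week the means were 0.551, 0.663 and 0.649. In UMIs per cell without thinning the sum was 2.76 in beta, 2.82 in alpha and 4.396 in delta cells of WT. By that measure beta cells were highest at 1 week (27.0, 23.5 and 26.1) and at 5 weeks (26.3, 12.7 and 15.9). With UMIs of hormone and mitochondrial genes left out of the total, the beta and alpha sums drew closer in WT, at 4983 and 6141 CPM, and changed places at 1 week, at 1873 and 1563 CPM, and at 5 weeks, at 17456 and 12845 CPM. Delta cells stayed highest on that scale, at 10062, 2029 and 18561 CPM in WT, 1 week and 5 weeks. Free RNA adds about equal UMIs to every droplet of a library. Summed acinar markers, which endocrine cells should lack, gave 9.64, 9.36 and 10.5 UMIs per beta, alpha and delta cell in WT, between 2.80 and 3.37 at 5 weeks and between 0.108 and 0.424 at 1 week, and 10 of 10 of them were detected in each class of WT. The part of free RNA in the member levels was not tested.

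The levels also varied with depth within a class. In WT beta cells the summed level was 1824 CPM in the shallowest 25% of cells (median 1129 UMIs) and 1312 in the deepest (3033 UMIs). At 5 weeks it was 8361 CPM (1846 UMIs) and 4395 (9556 UMIs), and the deepest cells at 5 weeks were thus above the shallowest of WT. In the shallowest and deepest 25% of alpha cells it was 4381 and 2954 CPM in WT, 1179 and 1031 at 1 week and 8065 and 6043 at 5 weeks. Delta cells had no such slope in WT (5854 and 6385 CPM) or at 5 weeks (12171 and 12906 CPM). At 1 week, with few delta cells, the order was reversed, at 947.7 and 1759.5 CPM. At 1 week the 3 shallower groups of beta cells lay between 1230.3 and 1349 CPM and the deepest at 669.6 CPM.

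To compare single cells at equal depth, each was thinned at random to 500 UMIs. A *Fos* UMI was then found in 9.12% (8.51 to 9.76) of beta cells in WT, in 1.07% (0.393 to 2.31) at 1 week and, at 5 weeks, in 44.8% (43.4 to 46.1). Without thinning, 24.3% of WT beta cells and 10.7% of those at 1 week had one. *Jund* was found in 9.42% (8.80 to 10.1), 31.4% (27.6 to 35.4) and 36.4% (35.1 to 37.7) of beta cells. *Atf3* was found in 10.9% (9.79 to 12.2) of alpha cells in WT, 2.91% (0.9505 to 6.65) at 1 week and, at 5 weeks, 19.3% (17.9 to 20.8), against 1.05%, 0.713% and 3.92% of beta cells.

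The number of members found together in a cell followed the levels. UMIs of 2 or more members were held by 15.3% (14.5 to 16.1) of beta cells in WT, 5.35% (3.64 to 7.55) at 1 week and, at 5 weeks, 56.7% (55.4 to 58.0). The shares were 40.1%, 8.14% and 64.1% in alpha cells and 56.4%, 10.8% and 85.4% in delta cells. WT and 1 week had nearly the same share of beta cells with none of the members, 61.4% and 61.1%, while cells with 3 or more made up 6.59% in WT, 0.713% at 1 week and 36.5% at 5 weeks. At 1 week *Jund* was the member found most often in beta (176 of 561) and alpha cells (51 of 172), while in delta cells *Jun* was found in 9 and *Jund* in 5 of 37.

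**Figure D3:**
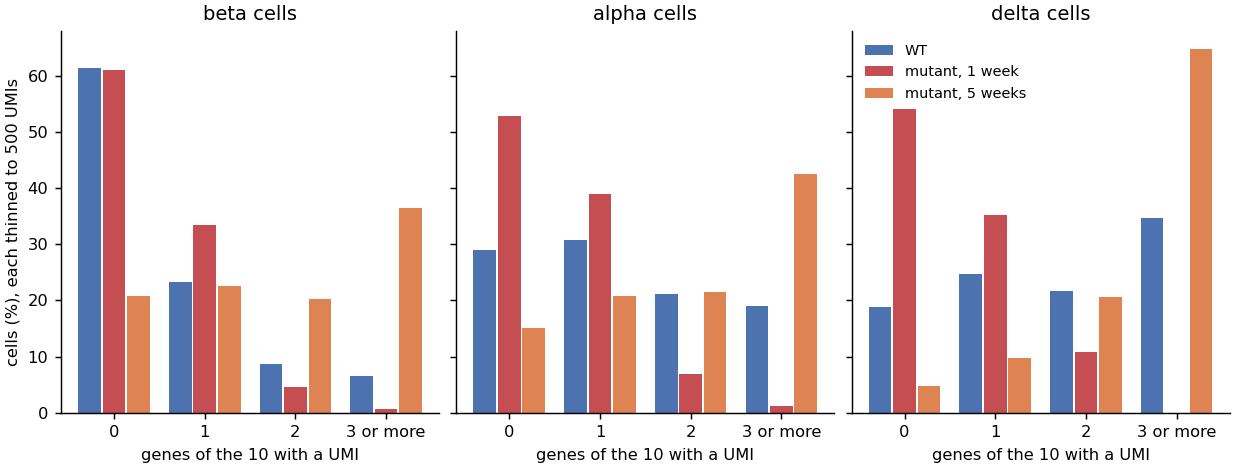
Share of cells with a UMI of 0, 1, 2 or at least 3 of the 10 members after thinning each cell to 500 UMIs, for the 3 libraries in beta, alpha and delta cells (percent of cells). Cells with 3 or more members make up 36.5% of beta cells at 5 weeks, 6.59% in WT and 0.713% at 1 week.

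Most pairs of members in WT and at 5 weeks occurred in the same cells more often than the product of their single shares, with the least clear excess in delta cells. Among the pairs for which at least 5 cells would hold both if the genes were independent, 39 of 39 in WT beta cells were seen together more often than that, 36 of them with an interval above 1, and the median ratio was 2.49. *Fos* and *Jun* were found together in 195 WT beta cells where independence gives 73.0, a ratio of 2.67 (2.31 to 3.07). The highest ratio was that of *Junb* with *Ier2*, at 3.66 (2.35 to 5.45), while *Gadd45g* was at 1.82 with *Fos* and 1.89 with *Jun*. In beta cells at 5 weeks 45 of 45 pairs were above 1, 40 with their interval, at a median of 1.38, and *Fos* and *Jun* were found together in 925 cells where independence gives 669. In WT alpha cells 43 of 45 pairs were above 1, 21 with their interval, at a median of 1.26, and in 5-week alpha cells 45 of 45, 40 with their interval, at 1.29. In delta cells 35 of 40 pairs were above 1 in WT, 15 with their interval, at a median of 1.40, and 42 of 45 at 5 weeks, of which 3 had an interval above 1, at 1.11. A ratio has less room above 1 where the single shares are high, so the medians of WT and 5 weeks are not comparable as sizes. Pairs of other genes were not counted, so whether the excess is particular to the members was not tested. The thinned totals include hormone UMIs, and the part of a cell's hormone share in these ratios was not tested either. At 1 week only 2 pairs in beta cells and 1 in alpha cells reached 5 cells, and none had an interval above 1.

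The spread of the members over cells was wide at either end. At 5 weeks 20.7% of beta cells held none of the 10, where independence gives 8.83%, and 8.75% held 5 or more, where it gives 2.73%. In WT beta cells the shares were 61.4% with none, against 51.2%, and 0.714% with 5 or more, against 0.0129%. Such shares were not computed for other genes, so whether this spread is particular to the members was not tested. The tenth of WT beta cells with most member UMIs held 45.8% of them before thinning, against 30.1% at 5 weeks. Depth, which thinning to 500 UMIs evens out, was not evened out in this last share.

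**Figure D4:**
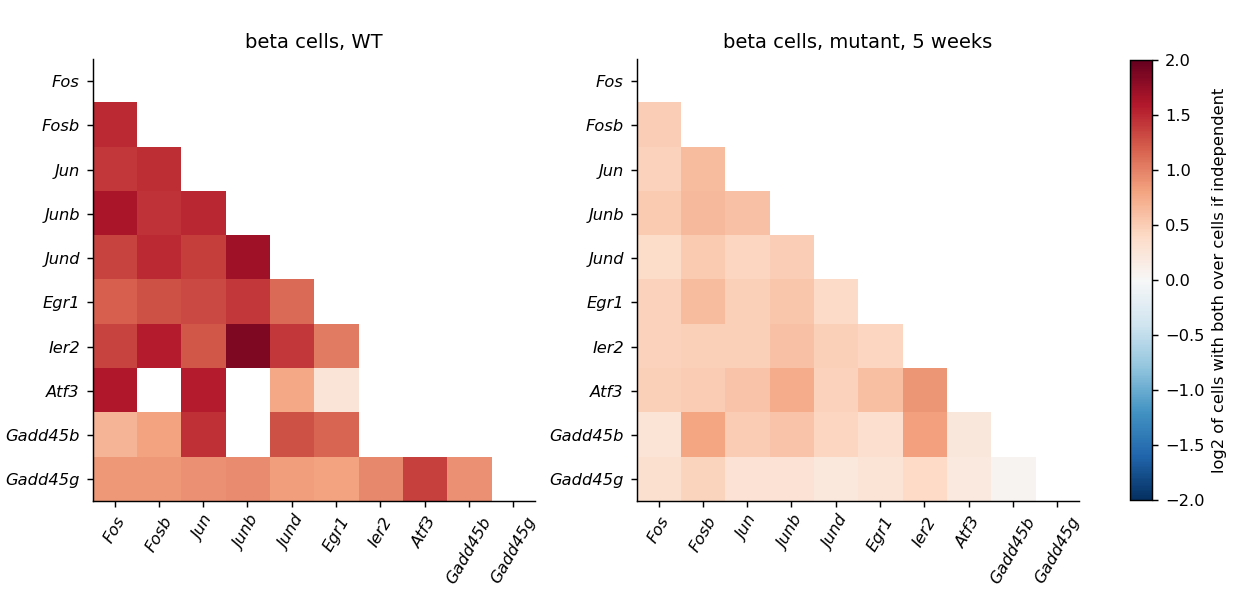
Log2 of the number of cells with a UMI of both genes over the number if they were independent, for each pair of members in WT and 5-week beta cells thinned to 500 UMIs; blank cells had fewer than 5 expected. All drawn pairs are above 0, and *Junb* with *Ier2* is highest in WT. No pairs of other genes were counted for comparison.

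Listed genes of the integrated stress response were not lowest at 1 week in beta cells, unlike the members other than *Jund*. This pathway raises *Atf4* translation and with it transcripts such as *Ddit3*, *Trib3*, *Chac1* and *Asns* when protein folding or amino acids are limiting. *Ddit3*, which encodes CHOP, was in beta cells at 44.8 CPM in WT, 1942 at 1 week and 184 at 5 weeks, and so was highest where *Fos* was lowest. *Herpud1*, a gene of endoplasmic reticulum stress, was at 124, 360.0 and 544 CPM, which is the order of *Jund*. Of 11 listed genes of the response in beta cells, 7 were at least 2-fold above the median gene at 1 week and 0 below. Over all genes these shares were 8.08% and 11.6%. At 5 weeks 4 were above and 1 below, against 3.73% and 5.96% of all genes. *Trib3*, a pseudokinase, was at 2.74 CPM in WT and 91.8 at 1 week, and the gene below at 5 weeks was *Nupr1*, a chromatin protein induced by stress, at 169 CPM in WT and 40.4 at 5 weeks. Within WT and 5 weeks, however, beta cells with a UMI of *Ddit3*, *Trib3*, *Herpud1*, *Chac1* or *Asns* had more member UMIs than those without, after thinning. The sum of the 10 members was 2940 CPM (2774 to 3115) in the 789 such beta cells of WT and 1364 (1326 to 1402) in the other 7480, and 8106 (7918 to 8297) against 5206 (5104 to 5309) at 5 weeks. At 1 week it was 1273 CPM (1105 to 1460) against 870.3 (711 to 1055), and this order was that of *Jund*, at 1025 against 510.5 CPM, and of *Jun*, at 137 against 50.2 CPM. *Fos* (6.21 against 41.8 CPM), *Junb* (49.7 against 92.1 CPM) and *Gadd45g* (24.8 against 66.9 CPM) were lower in the 1-week cells with such a UMI, with overlapping intervals, and *Egr1* had no UMI in them and 7 in the rest. In alpha cells the log2 ratio between such cells and the rest was 0.36 (0.23 to 0.49) in WT and 0.18 (0.11 to 0.26) at 5 weeks, and at 1 week its interval covered 0, at -0.16 (-0.73 to 0.40). Other genes were not compared between these groups of cells, so whether the differences are particular to the members was not tested.

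Heat shock transcripts had the order of *Fos*. *Hspa1a*, *Hspa1b* and *Dnajb1*, which encode an inducible chaperone in 2 copies and its partner, were taken for this comparison after their values were seen, and the 2 near-identical *Hspa1* copies may share reads. *Hspa1a* was in beta cells at 266 CPM in WT, 40.6 at 1 week and 957 at 5 weeks, and in alpha cells at 831, 3.57 and 2836 CPM. Delta cells held it at 2288 CPM in WT and 6527 at 5 weeks and had no UMI of it at 1 week, which allows up to 4.82 CPM. Of 11 listed heat shock genes, 7 were at least 2-fold below the median gene at 1 week in beta cells and 0 above. Over all genes these shares were 11.6% and 8.08%. At 5 weeks 8 were above and 0 below, against 3.73% and 5.96% of all genes. *Hspb1*, a small heat shock protein, was the lowest of the 11 at 1 week, with 181 CPM in WT and 3.61 at 1 week. In thinned cells with a UMI of any of the 3 genes, the sum of the members in WT was 3712 CPM (3587 to 3839.5) in beta cells, against 897 (865 to 931) in those with none. At 5 weeks it was 8191 CPM (8050 to 8333) against 3419 (3315 to 3525). The share of beta cells with such a UMI was itself 21.9% in WT, 1.78% at 1 week and 56.5% at 5 weeks. In cells with none, the 5-week sum was still above that of WT in beta (3419 against 897 CPM), alpha (3224 against 2360 CPM) and delta cells (5231 against 3100 CPM). In beta cells with none, the 1-week sum of 1089 CPM (969 to 1219) was also above that of WT, the reverse of the order over all beta cells. *Jund* made up 71.95% of the sum over all 1-week beta cells, against 14.87% in WT. Of the 8 members that could be compared in beta cells with none, 6 were still at least 2-fold lower at 1 week, relative to the median gene. The share of all genes lower in those cells was not computed. The log2 ratio between cells with and without was 2.38 (2.19 to 2.57) for *Jun* and 1.496 (1.35 to 1.64) for *Gadd45g* in WT beta cells. Other genes were not compared between cells with and without such a UMI, so whether the gap is particular to the members was not tested. What heat shock transcripts have to do with the member levels was not tested either.

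**Figure D5:**
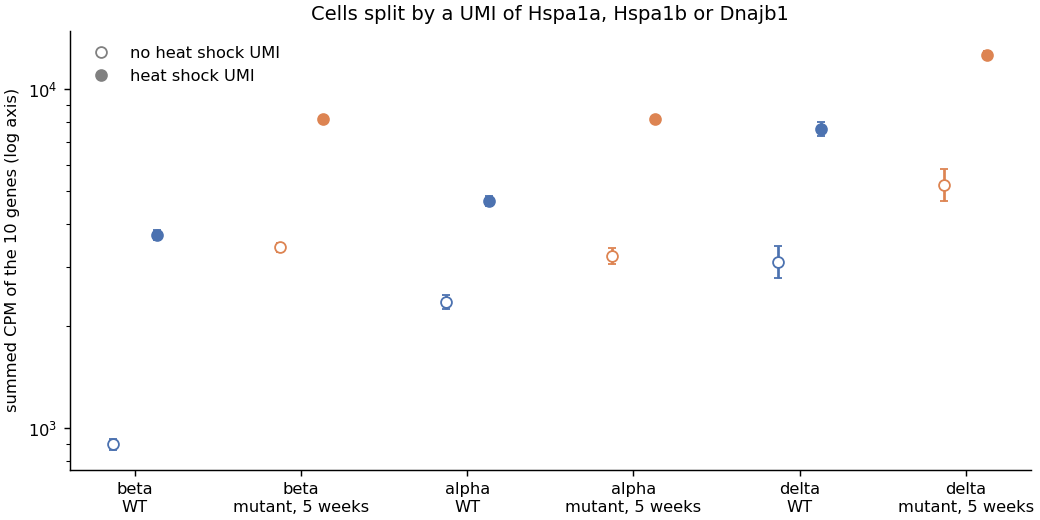
Summed level of the 10 members (CPM, log axis) in cells with and without a UMI of *Hspa1a*, *Hspa1b* or *Dnajb1*, after thinning to 500 UMIs, for WT and 5 weeks, with exact 95% intervals for counting error. Filled points lie above open points in each class, at 3712 against 897 CPM in WT beta cells.

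Other immediate early genes followed the members in part. Of 39 listed, 26 passed the floor in beta cells at 1 week, where 16 were at least 2-fold below the median gene and 3 above it (11.6% and 8.08% of all genes), with a list median of -1.29. At 5 weeks 30 passed, with 13 above and 1 below (3.73% and 5.96% of all genes) and a list median of 0.80. In alpha cells 5 of 16 were lower and 3 higher at 1 week, against 13.6% and 12.0% of all genes, and 10 of 26 were higher and 0 lower at 5 weeks, against 2.37% and 1.61%. The lowest at 1 week were *Npas4*, an activity-dependent factor, with 216 UMIs in WT beta cells and 1 at 1 week (log2 ratio -7.66, -12.97 to -5.16), and *Klf2*, a zinc finger factor, with 210 and 2 UMIs (-6.61, -9.67 to -4.74). *Gadd45a*, the third Gadd45 gene, went the other way, at 5.11 CPM in WT and 82.2 at 1 week. At 5 weeks *Egr2*, *Zfp36* and *Cyr61* were highest, with log2 ratios of 2.63 (1.74 to 3.67), 2.51 (2.25 to 2.78) and 2.47 (1.72 to 3.31), and *Klf10* was lower, at -1.20 (-1.67 to -0.73). Genes for other AP-1 and related bZIP proteins did not share this pattern. In beta cells 3 of 10 were at least 2-fold above and 1 below the median gene at 1 week (8.08% and 11.6% of all genes). At 5 weeks 0 of 10 were above or below (3.73% and 5.96%). *Crem*, a cyclic AMP responsive factor, was the lowest of the 10 at 5 weeks, at a log2 ratio of -0.82 (-1.01 to -0.64). Of 19 upstream kinases and factors 0 were above and 1 was below at 1 week, against the same shares of all genes. At 5 weeks 0 lay outside the limits in either direction. The list medians were -0.17 and -0.20, close to the median gene.

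Over the 9 combinations of class and library, the genes whose log2(CPM + 10) was most like that of *Fos* among 8739 genes were *Egr1* (r = 0.98), *Gadd45g* (0.97), *Fosb* (0.97), *mt-Atp8* (0.97) and *Ubb* (0.96). For *Jun* they were *Srsf7* (0.97), *Hspe1* (0.97), *Rhob* (0.96), *Txnip* (0.96) and *Mxd1* (0.95). For *Atf3* they were *Nr4a2* (0.95), *Gadd45b* (0.94), *Nptx1* (0.94), *Klf2* (0.92) and *Rel* (0.91). Among the members the least alike pair was *Jund* with *Gadd45g*, at 0.28. The 9 points come from 3 libraries and share their depth and free RNA, so these values of Pearson's r are a description.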

How the data were processed

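The deposited values are unnormalised UMI counts, with a row for every gene and a column for every barcode. Live sorted cells went through the 10X Genomics Chromium, and the authors made the counts with Cell Ranger 3.1 on mm10, and the submitters' processing notes also name bcl2fastq 2.17.1.14 and Seurat 3.1.4. In WT only, the authors removed cells high in hormones of 2 classes and called doublets, and scaled the library to 12000 cells. No doublet caller was run here.

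Counts were summed over cells chosen by hormone shares, and no gene was filtered before the totals. The libraries held 19472212, 23131247 and 39408284 UMIs (WT, 1 week and 5 weeks). Exact Poisson, binomial and conditional 95% intervals were computed with Python 3.11.15, numpy 2.4.6 and scipy 1.17.1, and figures with matplotlib 3.10.9. A count of 0 was taken to allow 3 counts. The scripts were tested on simulated data. No test between conditions was made. The members and gene lists were chosen with earlier results of these data known. Beside the members, the text names the 3 highest and 3 lowest listed genes in beta cells per comparison, the checks, and the 5 genes most like *Fos*, *Jun* and *Atf3* over genes with at least 300 UMIs. Alternatives changed the cell limits, the depth, the centring, the floor on UMIs and the weighting of cells.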

Additional observations from a re-analysis of the deposited data

Results flagged for a closer look

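*Jund* differed in direction between the cell classes at 1 week. Relative to the median gene it was at 0.63 in beta cells against -0.18 in alpha and -1.16 in delta cells, with counting intervals that lie on either side of 0. As a plain log2 ratio it was higher at 1 week in alpha cells too, at 0.45 (0.35 to 0.55), so its direction there depends on the scale. The difference between the classes was not tested, since each class was measured in 1 library per condition.

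Barcodes that met none of the 3 definitions also held the members at a higher level at 5 weeks. Their sum was 8142 CPM (8052 to 8233) at 5 weeks in 1291 barcodes, 2355 CPM (2237 to 2477) in 338 barcodes of WT and 1103 CPM (1070.4 to 1137) in 1524 barcodes at 1 week.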

How the results depend on the processing

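Of 40 member ratios at least 2-fold from the median gene, 403 of 404 recomputed values kept the sign and 390 stayed past 2-fold. Of 124 recomputed counts of members, 117 stayed within 1.5 times the reported count. Many of the 117 are counts reported as 0 that stayed at 0, which says little about the other counts. Without centring on the median gene, 1 member (*Jund*) was at least 2-fold higher in beta cells at 1 week, in place of 0. The median gene was itself more than 2-fold higher there, at a log2 ratio of 1.15. In alpha cells at 5 weeks 5 members were higher both after thinning to 500 UMIs and under stricter hormone limits, in place of 3. A floor of 300 UMIs left 5 members in delta cells at 1 week, of which 5 were lower. A further 2 alternatives were chosen after seeing the data. In cells thinned to 500 UMIs without an *Hspa1a*, *Hspa1b* or *Dnajb1* UMI, 1 member was higher in beta cells at 1 week, 4 of 6 were lower in alpha cells at 1 week, 1 of 9 was higher in alpha cells at 5 weeks, and *Junb* in beta cells at 1 week turned from -1.44 to 0.13; the cause was not tested. No member passed the floor there in delta cells at 1 week, which gave no value. Shares of all genes were not computed in those cells. The *Junb* value of the beta cells rests on few 1-week UMIs. The limits of 200 to 1500 genes and 15% mitochondrial UMIs moved no count of 5 weeks over WT beyond 1.5 times. At 1 week those limits keep 17 of 561 beta, 1 of 172 alpha and 1 of 37 delta cells, so nearly all 1-week cells lie outside them and no comparison was made there.

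Thinning to 1000 UMIs, which leaves more UMIs in a cell by construction, gave shares of cells with 2 or more members of 25.7%, 58.6% and 81.5% in beta, alpha and delta cells of WT, 16.0%, 18.6% and 27.0% at 1 week and 74.0%, 83.9% and 95% at 5 weeks. At 1000 UMIs only 619 WT alpha and 65 WT delta cells were deep enough. No paired analysis was possible because each condition had 1 library. The 37 delta cells at 1 week and counts of 1 UMI set the limits of precision.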

Other observations

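Of the barcodes outside the 3 classes at 5 weeks, 226 held UMIs of 3 or more listed endothelial markers, at a median of 1200.5 UMIs. *Fos* was at 2696 CPM (2516 to 2886), *Jun* at 2848 (2663 to 3043), *Junb* at 4373 (4143 to 4612), *Jund* at 3269 (3070.5 to 3477) and *Egr1* at 1609 (1470.3 to 1756.5). *Gadd45b* was at 955 CPM (849 to 1070.2) and *Hspa1a* at 5415. Hormone transcripts take up much of the total in endocrine cells, so these levels are not set against theirs: without hormone and mitochondrial UMIs, *Fos* in 5-week beta cells was at 4609.8 CPM and *Jund* in 5-week delta cells at 3913. No barcode of the WT library and 2 of the 1-week library met this limit, so the libraries cannot be compared for these cells.

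In WT 64 barcodes outside the classes had 10% or more of their UMIs from listed acinar markers, at a median of 1906 UMIs. *Fos* was at 188 CPM (128 to 266) in them and *Jun* at 297 (219.5 to 392).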
